A study of Caenorhabditis elegans with 14 samples.

Results

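The microRNAs mir-63, mir-64, mir-65, mir-66 and mir-229 of the nematode Caenorhabditis elegans were described across 9 libraries of small RNA. They were chosen by name from the microRNA class of the count tables, and all 5 were found among 224 microRNA loci and 45510 genes. Their sense reads were read over all reads not assigned to ribosomal RNA (rRNA), as counts per 1000000 non-rRNA reads (CPM), and as a share of all sense reads of microRNAs. All 5 had reads in 7 of the 9 libraries.

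The source named for every library is the embryo, in the N2 strain background, with worms kept at 20 °C. Of 14 libraries in the series, 5 held total small RNA and 4 held what a pull-down of NRDE-3 brought along, and 5 libraries of rRNA tails were not used. The total libraries came from eri-1(mg366);3xflag::gfp::nrde-3 with ultraviolet light (UV), the same genotype without UV, the mutant susi-1(R457H), cold-shocked N2 and untreated N2. The pull-downs used the M2 antibody against FLAG, in eri-1(mg366);3xflag::gfp::nrde-3 with UV, without UV and after cold shock, and in 3xflag::gfp::nrde-3 after cold shock, here called N2 after cold shock. The cold treatment lasted 12 h at 4 °C, with 2 h back at 20 °C, and UV was 50 mJ/cm2 followed by 2 h of recovery. No transgene is named for the total libraries of cold-shocked N2, susi-1(R457H) or N2, and the growth protocol of the UV experiment mentions plates without food. Each group had 1 library, so no difference has a replicate check, no p-value is given, and every comparison is of 2 libraries and not of conditions. Intervals are exact 95% intervals of counting error alone, and amplified reads without molecular identifiers are not independent molecules.

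MicroRNAs are cut from hairpin precursors, and the mature strand guides an Argonaute protein to messages that pair with its seed, the bases near its 5′ end. The 5 microRNAs are grouped as a family because they share a seed, and the mature strands of mir-64 and mir-65 are nearly the same, so reads may be split between these loci and values of either alone are uncertain. Most microRNA families of the worm can be deleted without the strong defects seen on loss of let-7 or lin-4. NRDE-3 is an Argonaute that enters the nucleus when loaded with small interfering RNAs (siRNAs), and is not known as a carrier of microRNAs. ERI-1 is an exonuclease needed to make some siRNAs, and SUSI-1 is an exonuclease of the Dis3L2 type.

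In the Ensembl 115 annotation of build WBcel235, matched by gene ID because the sources used here do not give the build of the counts, 4 of the 5 hairpins stood together. On the plus strand of chromosome III lay mir-229 at 2172452 to 2172566, mir-64 at 2172848 to 2172957, mir-65 at 2173002 to 2173101 and mir-66 at 2173108 to 2173206. The gaps between neighbours were 281, 44 and 6 bases, and the whole cluster spanned 755 bases. All 4 lay on the sense strand of an intron of 6429 bases, between exons 11 and 12 of the 28 exons of gcn-1, a homologue of yeast Gcn1, which helps activate the kinase Gcn2. The hairpin of mir-63 lay apart, on the minus strand of chromosome X at 17598765 to 17598868, between genes. Hairpins measured 99 to 115 bases, and levels were compared between members without a correction for length.

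Reads assigned to genes numbered 4013277 to 10349062 in a library, and rRNA took 51.8 to 95.6% of them. The remaining non-rRNA reads numbered 357435 to 3123387. The NRDE-3 libraries of eri-1 with and without UV stood apart from the other 7: only 5443 and 5098 genes had a read, against 11531 to 19940 elsewhere, and the median entry with a read held 38 and 57 reads, against 3 to 16 elsewhere. Among microRNA entries with a read, 4.04 and 0.781% held 10 reads or fewer in those libraries with and without UV, against 40.1 to 61.9% in the others. Few entries with many reads each is what these libraries show, and intervals of counting error on them may be too narrow. A count of 0 in them may stand for more than 3 reads, so folds set on 3 reads are not bounds. As markers of the embryo, 8 of 8 mir-35 family microRNAs had reads in every library, with 18.2 to 49.4% of microRNA reads in total libraries. They held 70.9 and 40.8% in NRDE-3 libraries after cold shock of eri-1 and N2, and 5.19 and 3.01% in those of eri-1 with and without UV. Whether a microRNA had fewer molecules per cell or fewer cells carried it cannot be told apart in such bulk RNA.

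**Figure D1:**
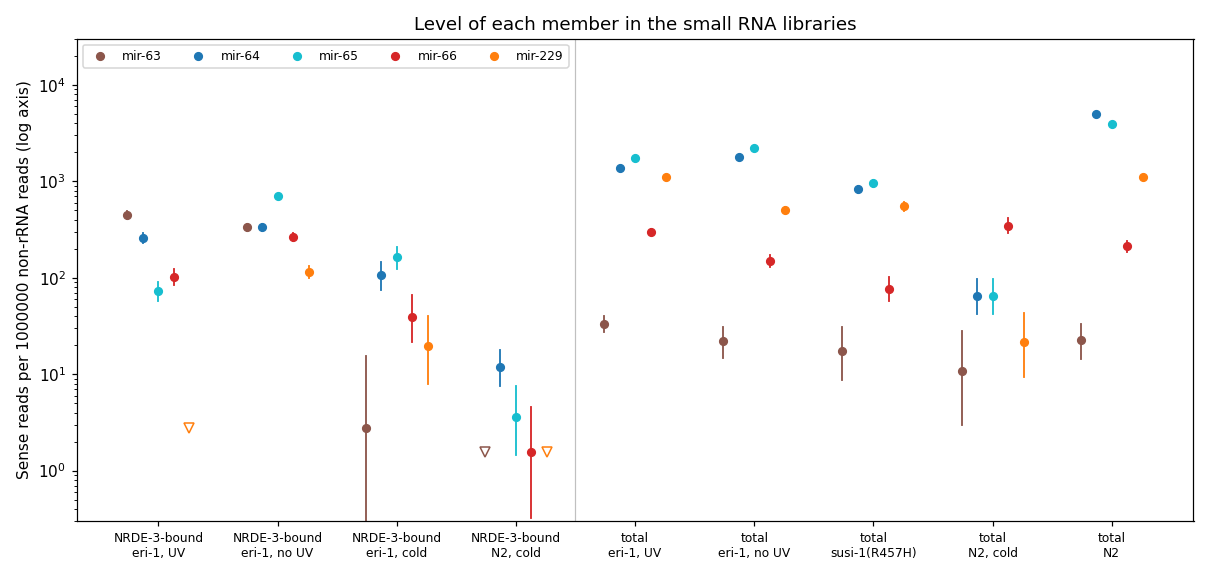
Level of each member in counts per 1000000 non-rRNA reads (log axis) in the 4 NRDE-3-bound and 5 total small RNA libraries, 1 library a group. Points are levels and bars exact 95% Poisson intervals of counting error. Open triangles mark the level that 3 reads would give where a member had 0. Members mir-64 and mir-65 led in every total library except N2 after cold shock, where mir-66 led, and mir-63 was lowest in all 5 total libraries.

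The levels of mir-64 were among the highest of the family. In NRDE-3-bound RNA it had 260 CPM in eri-1 with UV, 333 CPM in eri-1 without UV, 106 CPM in eri-1 after cold shock and 11.9 CPM in N2 after cold shock. In total RNA it had 1388 CPM in eri-1 with UV, 1795 CPM in eri-1 without UV, 829 CPM in susi-1(R457H), 65.0 CPM in N2 after cold shock and 5018 CPM in N2. It was highest in total RNA of N2, where it was the tenth most abundant microRNA, and lowest in NRDE-3-bound RNA of N2 after cold shock. In the order of its levels, the intervals of only 1 pair of neighbours overlapped, eri-1 after cold shock in NRDE-3-bound RNA and N2 after cold shock in total RNA.

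For mir-65, NRDE-3-bound levels were 72.7 CPM in eri-1 with UV, 703 CPM in eri-1 without UV, 162 CPM in eri-1 after cold shock and 3.62 CPM in N2 after cold shock. Its total levels were 1728 CPM in eri-1 with UV, 2234 CPM in eri-1 without UV, 954 CPM in susi-1(R457H), 65.0 CPM in N2 after cold shock and 3938 CPM in N2. The 5 highest libraries came in the same order for mir-65 as for mir-64. The single overlap between neighbours was between NRDE-3-bound RNA of eri-1 with UV and total RNA of N2 after cold shock.

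The third abundant member, mir-229, had 0 reads in NRDE-3-bound RNA of eri-1 with UV and of N2 after cold shock. There 3 reads would be 2.76 and 1.55 CPM, and the Poisson intervals reached 3.39 and 1.91 CPM. The first of these libraries held few entries with many reads each, so a 0 there may stand for more. Its other NRDE-3-bound levels were 116 CPM in eri-1 without UV and 19.6 CPM in eri-1 after cold shock. Total RNA held 1122 CPM of it in eri-1 with UV, 500.0 CPM in eri-1 without UV, 553 CPM in susi-1(R457H), 21.7 CPM in N2 after cold shock and 1111 CPM in N2. Its levels in eri-1 with UV and in N2 could not be told apart, nor could those in susi-1(R457H) and eri-1 without UV.

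Of mir-66, NRDE-3-bound RNA held 101 CPM in eri-1 with UV, 264 CPM in eri-1 without UV, 39.2 CPM in eri-1 after cold shock and 1.55 CPM in N2 after cold shock. Total RNA held 298 CPM in eri-1 with UV, 149 CPM in eri-1 without UV, 77.2 CPM in susi-1(R457H), 347 CPM in N2 after cold shock and 213 CPM in N2. It was the only clustered member whose highest level was in N2 after cold shock, and its top 4 libraries formed a chain of overlapping intervals.

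For mir-63, the member on chromosome X, levels were 448 CPM in NRDE-3-bound RNA of eri-1 with UV, 334 CPM without UV and 2.80 CPM in eri-1 after cold shock, from 1 read. It had 0 reads in N2 after cold shock, where 3 reads would be 1.55 CPM and the Poisson interval reached 1.91 CPM. Total RNA held 33.3 CPM in eri-1 with UV, 21.9 CPM in eri-1 without UV, 17.3 CPM in susi-1(R457H), 10.8 CPM in N2 after cold shock and 22.4 CPM in N2. Both NRDE-3-bound libraries of the UV experiment stood above all others for mir-63. From the third position down, the interval of each of its libraries overlapped the next, so neighbours among those 7 could not be told apart.

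**Figure D2:**
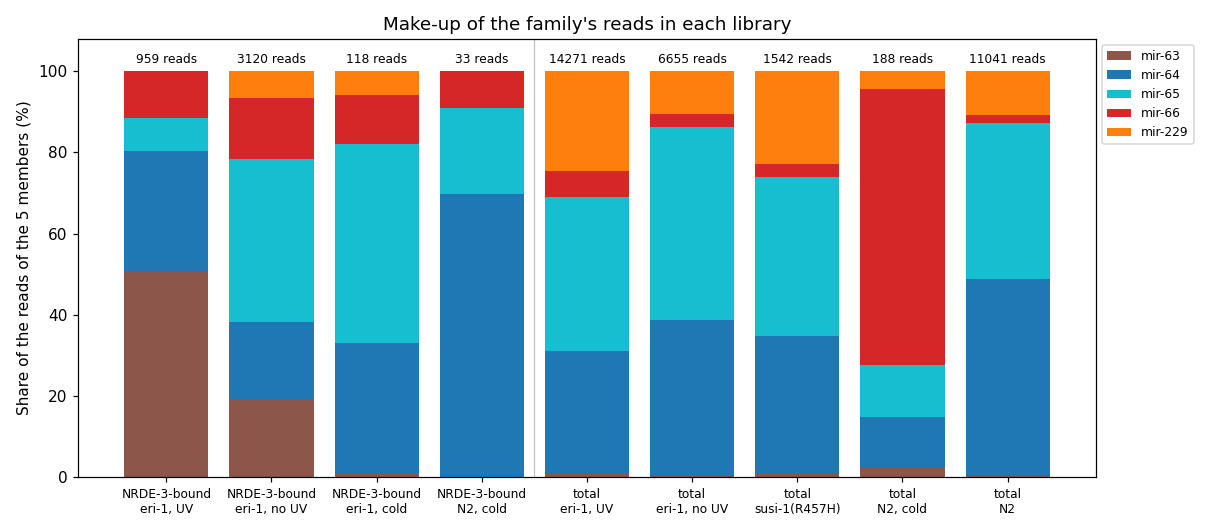
Share of each member among the reads of the 5 (percent, stacked bars from 0) in each NRDE-3-bound and total library, with the number of reads above each bar. The red segment, mir-66, took 68.1% in total RNA of N2 after cold shock and 2.07% in N2, and the brown segment, mir-63, took 50.8% in NRDE-3-bound RNA of eri-1 with UV.

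Shares within the family need no scaling over other RNA classes. In N2, mir-64 held 48.7% of the family's reads, mir-65 38.2%, mir-229 10.8%, mir-66 2.07% and mir-63 0.217%. Of the other total libraries, eri-1 with UV, eri-1 without UV and susi-1(R457H) kept mir-64 and mir-65 on top, at 30.4, 38.2 and 34.1% for mir-64 and 37.8, 47.5 and 39.2% for mir-65. Among all microRNA reads, the 5 together held 1.16% in eri-1 with UV, 1.85% in eri-1 without UV, 3.21% in susi-1(R457H), 1.05% in cold-shocked N2 and 5.23% in N2. The same share in NRDE-3-bound RNA was 2.00% in eri-1 with UV, 1.67% in eri-1 without UV, 0.777% in eri-1 after cold shock and 0.126% in N2 after cold shock. Antisense reads of the 5 loci numbered at most 11 in a library.

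A difference was called when a pair of libraries held 50 or more reads, the ratio was at least 2 or at most 0.5, and its interval left out 1. This is a rule of size on 2 libraries, and the share of all genes it called in each direction is given as a background for every comparison. The comparisons with N2 share its library, and those with a total or NRDE-3-bound library of eri-1 share theirs, so they are not independent.

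**Figure D3:**
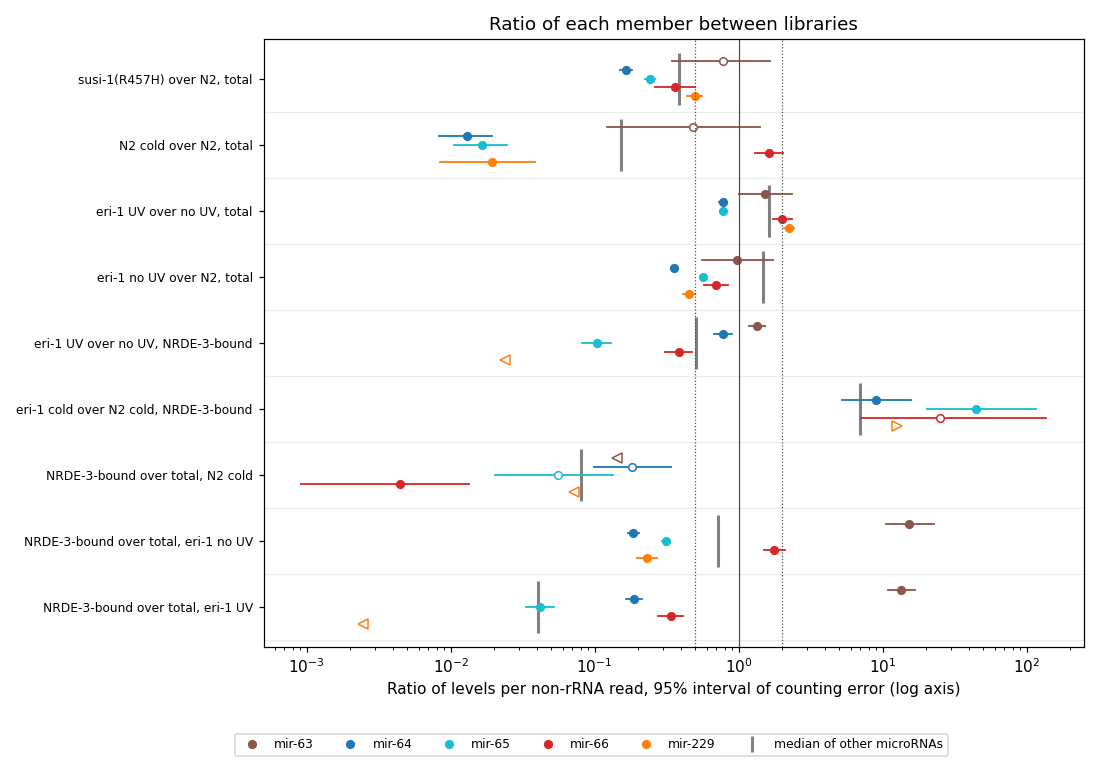
Ratio of each member's level in 9 comparisons of 2 libraries (log axis), over non-rRNA reads; bars are exact 95% intervals of counting error, open circles pairs with fewer than 50 reads, open triangles bounds where a library had 0, grey marks the median of the other microRNAs, and dotted lines ratios of 0.5 and 2. After cold shock mir-64, mir-65 and mir-229 lay left of the grey mark and mir-66 right of it, and mir-63 lay far right in NRDE-3-bound over total RNA of eri-1 with and without UV.

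In susi-1(R457H), 4 of 4 testable members were lower than in N2 by different amounts. Reads of mir-64 numbered 526 in susi-1(R457H) and 5378 in N2, and its level was 6.05-fold lower (interval 5.53 to 6.63), the lowest ratio of the 49 microRNAs tested. Reads of mir-65 numbered 605 in susi-1(R457H) and 4220 in N2, a level 4.13-fold lower (3.79 to 4.50). Reads of mir-66 numbered 49 in susi-1(R457H) and 228 in N2, and the level was 2.75-fold lower (2.02 to 3.83). Reads of mir-229 numbered 351 in susi-1(R457H) and 1191 in N2, a level 2.01-fold lower (1.78 to 2.27) that ranked 41st from the lowest of 49. Reads of mir-63 numbered 11 in susi-1(R457H) and 24 in N2, too few for a call, with a ratio of 0.774 (0.342 to 1.64).

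Lower levels were the rule in susi-1(R457H): of 2264 genes tested, 49.1% were called lower and 14.3% higher, and the median log2 ratio over all of them was -0.96. Of 45 other microRNAs, 37 were lower, 1 was higher and 7 were neither, with a median ratio of 0.383. MicroRNA reads together were 7.58% of non-rRNA reads in susi-1(R457H) and 19.7% in N2. Scaled to microRNA reads, mir-64 still passed the rule with a ratio of 0.429, mir-65 at 0.629 and mir-66 at 0.943 did not, and mir-229 turned to 1.29. Under DESeq2 size factors and the trimmed mean of M values (TMM) of edgeR, mir-66 and mir-229 also missed the rule, at 0.645 and 0.665 for mir-66 and 0.884 and 0.912 for mir-229. The mir-35 family summed to 13825 CPM in susi-1(R457H) and 47857 CPM in N2, and piRNAs, small RNAs of the germline, to 949 CPM in susi-1(R457H) and 2529 CPM in N2. Of the 5 listed markers of the time after hatching, 2 had reads in susi-1(R457H), where lin-4, mir-84 and mir-241 were at 0, and 5 had reads in N2. Summed, these 5 markers were at 205 CPM in susi-1(R457H) and 199 CPM in N2. The part of these in the results was not tested. Within the family the odds of a read being mir-229 rather than another member were 2.44 times those in N2 (2.13 to 2.79), and the odds of mir-64 were 0.545 times (0.487 to 0.610). Of genes called apart, 22.6% were higher over non-rRNA reads, and this share ran from 3.14 to 76.2% under the other 4 scalings.

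After cold shock, mir-66 parted from its cluster neighbours. For mir-64, 24 reads in N2 after cold shock stood against 5378 in N2, a level 77.1-fold lower (51.8 to 120.5). For mir-65, 24 reads in N2 after cold shock stood against 4220 in N2, a level 60.5-fold lower (40.6 to 94.6). For mir-229, 8 reads in N2 after cold shock stood against 1191 in N2, a level 51.3-fold lower (25.9 to 119). These members held the 4th to 6th lowest ratios of 52 microRNAs tested. For mir-66, 128 reads in N2 after cold shock stood against 228 in N2, and with the smaller depth of the cold library its ratio was 1.63 (1.30 to 2.03), which the rule called neither. The odds of a family read being mir-66 were 101 times those in N2 (71.6 to 144). For mir-63, 4 reads in N2 after cold shock stood against 24 in N2, with a ratio of 0.484 (0.122 to 1.41) and no call.

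The 3 lower calls stood among many, since 65.6% of 2102 genes tested were called lower after cold shock and 22.7% higher, and the median log2 ratio over all of them was -2.44. Of 48 other microRNAs, 33 were lower, 8 higher and 7 neither, with a median ratio of 0.151. The 5 members summed were 20.2-fold lower (17.5 to 23.5), and as a share of microRNA reads they were at 1.05% after cold shock and 5.23% in N2. The size of the lower calls moved with the scaling. Ratios of mir-64 were 0.0130 over non-rRNA reads and 0.00330 to 0.0527 under the other 4 scalings, those of mir-65 were 0.0165 and 0.00420 to 0.0672, and those of mir-229 were 0.0195 and 0.00497 to 0.0794, all called lower. The direction for mir-66 depended on the scaling, since its ratio was 0.415 over all assigned reads, 6.64 over microRNA reads, 4.49 with DESeq2 size factors and 3.48 with TMM. Among genes called apart, 25.7% were higher over non-rRNA reads, against 9.78 to 55.3% under the others. Sense reads of the host gcn-1 were at 390 CPM after cold shock and 60.7 CPM in N2, and the sources used here do not give whether they come from its intron.

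Markers of other cells and stages moved in the same pair of libraries. The microRNA mir-1, which marks muscle, was at 5873 CPM in N2 after cold shock and 9.33 CPM in N2. The 5 listed of 6 markers of the time after hatching summed to 856 CPM after cold shock and 199 CPM in N2, all 5 with reads in both. The mir-35 family summed to 23925 CPM after cold shock and 47857 CPM in N2. Their part in the results on mir-64, mir-65, mir-66 and mir-229 was not tested.

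**Figure D4:**
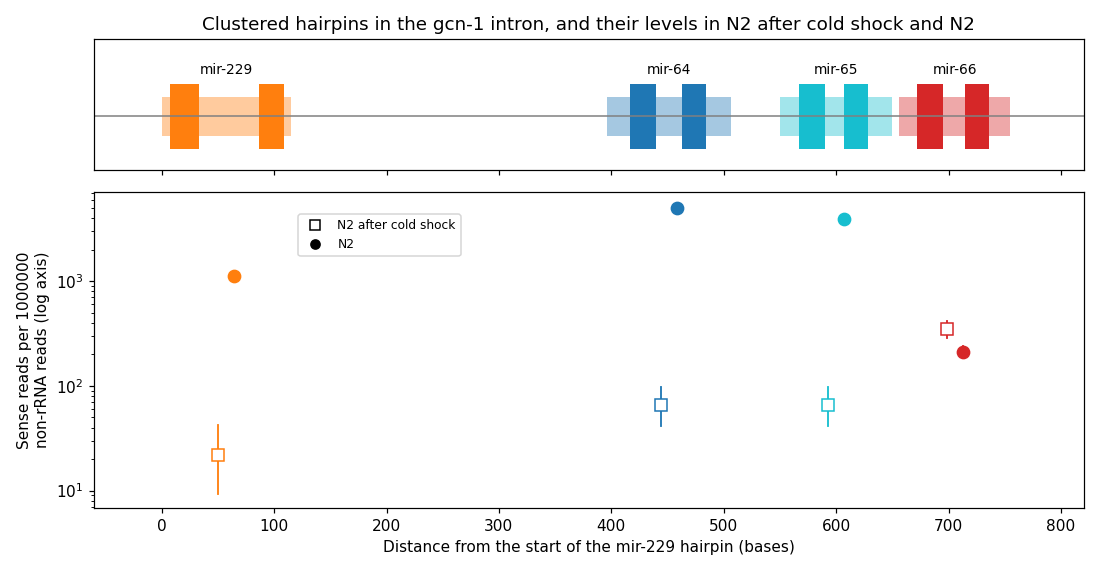
Upper panel, the 4 clustered hairpins (pale boxes) with their annotated arms (dark boxes) by distance in bases from the start of the mir-229 hairpin; lower panel, level of each in counts per 1000000 non-rRNA reads (log axis) in N2 after cold shock (open squares) and N2 (filled circles), with exact 95% Poisson intervals. The squares of mir-229, mir-64 and mir-65 lie far below their circles, and that of mir-66, which starts 656 bases from the mir-229 start, lies above its circle.

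In total RNA of eri-1, mir-66 and mir-229 were higher with UV over non-rRNA reads, and mir-64 and mir-65 were not. Reads of mir-229 numbered 3503 with UV and 708 without, a ratio of 2.24 (2.07 to 2.44). Reads of mir-66 numbered 932 with UV and 211 without, a ratio of 2.00 (1.72 to 2.34) that lay just past the threshold. Reads of mir-64 numbered 4334 with UV and 2542 without, a ratio of 0.773 (0.736 to 0.812). Reads of mir-65 numbered 5398 with UV and 3163 without, with nearly the same ratio of 0.774 (0.740 to 0.809). Both fell short of the rule. Reads of mir-63 numbered 104 with UV and 31 without, a ratio of 1.52 (1.01 to 2.35).

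Summed, the family was at a ratio of 0.972 (0.944 to 1.00), while within it the odds of mir-229 were 2.73 times (2.50 to 2.98) and those of mir-66 2.13 times (1.83 to 2.50) the odds without UV. Of 5114 genes tested, 15.6% were called higher and 10.2% lower with UV, and the median log2 ratio over all of them was 0.17. Of 78 other microRNAs 18 were higher, 2 lower and 58 neither, and their median ratio of 1.61 lay below that of mir-66 and mir-229. Scaled to microRNA reads, the ratios of mir-66 and mir-229 were 1.29 and 1.44, and with DESeq2 size factors 1.77 and 1.99, both short of the rule. With TMM mir-229 passed it at 2.01 and mir-66 missed it at 1.79. Ratios of mir-64 and mir-65 over microRNA reads were 0.497 each, which passed it as lower, and over assigned reads they turned to 1.77 each, short of it. Over assigned reads mir-63 passed it as higher at 3.49. Of genes called apart, 60.5% were higher over non-rRNA reads, against 20.96 to 98.7% under the others.

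Without UV, total RNA of eri-1 held less of 2 clustered members than N2. Reads of mir-64 numbered 2542 in eri-1 and 5378 in N2, a level 2.80-fold lower (2.67 to 2.93). Reads of mir-229 numbered 708 in eri-1 and 1191 in N2, a level 2.22-fold lower (2.02 to 2.44). The ratio of mir-65 was 0.567 (0.542 to 0.594), that of mir-66 was 0.700 (0.578 to 0.848) and that of mir-63 was 0.978 (0.555 to 1.74), all called neither. With DESeq2 size factors and TMM mir-229 missed the rule at 0.594 and 0.622, and over assigned and microRNA reads mir-65 passed it as lower at 0.450 and 0.441. In this pair 25.8% of 3242 genes were called lower and 10.3% higher, and the median log2 ratio over all of them was -0.43, while 20 of 59 other microRNAs were higher, 12 lower and 27 neither, with a median ratio of 1.48. The family summed was 2.19-fold lower (2.13 to 2.26), a share of microRNA reads of 1.85% in eri-1 and 5.23% in N2. The eri-1 library also differs from N2 by its transgene and its growth plates, and these cannot be told apart. Markers moved in the same pair. The piRNAs summed to 10087 CPM in eri-1 and 2529 CPM in N2, the markers of the time after hatching to 51.6 CPM in eri-1 and 199 CPM in N2, and the mir-35 family to 71320 CPM in eri-1 and 47857 CPM in N2. Their part in the results was not tested. Among genes called apart, 28.6% were higher over non-rRNA reads, against 16.2 to 51.9% under the others.

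In NRDE-3-bound RNA of eri-1, 3 clustered members were lower with UV. Reads of mir-229 numbered 0 with UV and 206 without, so its level was 41.8-fold lower with 3 reads in place of 0. That fold is not a bound, since only 4.04% of microRNA entries with a read held 10 reads or fewer with UV. Reads of mir-65 numbered 79 with UV and 1254 without, a level 9.67-fold lower (7.70 to 12.3). Reads of mir-66 numbered 110 with UV and 471 without, a level 2.61-fold lower (2.12 to 3.24). Reads of mir-64 numbered 283 with UV and 594 without, a ratio of 0.782 (0.676 to 0.902), and those of mir-63 numbered 487 with UV and 595 without, a ratio of 1.34 (1.19 to 1.52), both called neither. Counted apart, mir-63 had a ratio of 1.04 (0.904 to 1.19) on its hairpin entry. On its arm entries, 134 reads with UV stood against 36 without, a ratio of 6.11 (4.20 to 9.09). For mir-66 the hairpin entry had 0.240 (0.170 to 0.331) and the arm entries 0.621 (0.462 to 0.827), short of the rule. For mir-64 they had 0.974 and 0.502, and for mir-65 0.122 and 0.0895. Over microRNA reads the ratio of mir-66 was 0.911 and missed the rule, and that of mir-63 was 3.19 and passed it. The ratio of mir-64 was 0.483 over assigned reads, called lower, and turned to 1.86 over microRNA reads, called neither, and that of mir-63 turned to 0.831 over assigned reads.

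The nearly identical mir-64 and mir-65 thus had unlike ratios in this pair, and their sum within the family had an odds ratio of 0.417 (0.359 to 0.486), against 1.78 for mir-64 alone. Of 949 genes tested, 40.8% were called higher and 34.4% lower with UV, and the median log2 ratio over all of them was 0.29. Of 62 other microRNAs, 13 were higher, 31 lower and 18 neither, with a median ratio of 0.504. Both libraries are those in which few entries held many reads, and the part of this in the results was not tested. Of genes called apart, 54.3% were higher over non-rRNA reads, against 47.6 to 66.1% under the others.

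NRDE-3-bound RNA after cold shock held more of the family in eri-1 than in N2, from few reads. Reads of mir-65 numbered 58 in eri-1 and 7 in N2, a ratio of 44.8 (20.4 to 116). For mir-64, 38 reads in eri-1 stood against 23 in N2, a ratio of 8.94 (5.19 to 15.7). Reads of mir-66 numbered 14 in eri-1 and 3 in N2, a ratio of 25.2 (7.04 to 137) with too few reads for a call. For mir-229, 7 reads in eri-1 stood against 0 in N2, 12.6-fold higher with 3 reads in place of 0. For mir-63, 1 read in eri-1 stood against 0 in N2, with no fold given.

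In that pair 88.9% of 1588 genes were called higher and 9.82% lower, and the median log2 ratio over all of them was 3.85, and 23 of 24 other microRNAs were higher and 1 lower, with a median ratio of 6.97. Under DESeq2 size factors mir-64 had a ratio of 0.695 (0.404 to 1.22), and under TMM 0.704 (0.409 to 1.24). Both intervals held 1, so no direction was shown, and over assigned reads mir-64 missed the rule at 1.16. Of genes called apart under DESeq2 and TMM, 49.9 and 50.6% were higher, against 90.1% over non-rRNA reads. As a share of microRNA reads the family was at 0.777% in eri-1 and 0.126% in N2, an odds ratio of 6.20 (4.18 to 9.42).

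Set against total RNA, NRDE-3-bound RNA of N2 after cold shock held little of the family. For mir-66, 3 reads in NRDE-3-bound RNA stood against 128 in total RNA, a ratio of 0.00447, and its level was 223.6-fold lower (74.8 to 1098), the second lowest ratio of 23 microRNAs tested. Reads of mir-64 numbered 23 in NRDE-3-bound RNA and 24 in total RNA, with a ratio of 0.183 (0.0986 to 0.338), too few for a call. For mir-65, 7 reads in NRDE-3-bound RNA stood against 24 in total RNA, a ratio of 0.0557 (0.0203 to 0.133), also without a call. Against totals of 8 and 4 reads, mir-229 and mir-63 had 0 reads in NRDE-3-bound RNA, 14.0-fold and 6.99-fold lower with 3 reads in place of 0. Of 1123 genes tested 60.0% were called lower and 30.4% higher, and the median log2 ratio over all of them was -3.91, and of 22 other microRNAs 16 were lower, 2 higher and 4 neither, with a median ratio of 0.0805. Under the other 4 scalings the ratio of mir-66 ran from 0.0117 to 0.0487, still called lower. That of mir-64 turned to 1.99 over assigned reads, and that of the summed family, at 0.0335 over non-rRNA reads, ran to 0.365. Among genes called apart, 33.6% were higher over non-rRNA reads, against 41.1 to 51.5% under the others.

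In eri-1 without UV, NRDE-3-bound RNA held more mir-63 than total RNA and, over non-rRNA reads with entries summed, less of 3 clustered members. Reads of mir-63 numbered 595 in NRDE-3-bound RNA and 31 in total RNA, a ratio of 15.2 (10.6 to 22.6), the 67th from the lowest of 73 microRNAs tested. For mir-64, 594 reads in NRDE-3-bound RNA stood against 2542 in total RNA, a level 5.39-fold lower (4.93 to 5.90). Reads of mir-65 numbered 1254 in NRDE-3-bound RNA and 3163 in total RNA, 3.18-fold lower (2.98 to 3.39), and those of mir-229 numbered 206 in NRDE-3-bound RNA and 708 in total RNA, 4.33-fold lower (3.70 to 5.08). Reads of mir-66 numbered 471 in NRDE-3-bound RNA and 211 in total RNA, a ratio of 1.77 (1.503 to 2.09) called neither. Counted apart, reads on the hairpin entries of mir-64, mir-65 and mir-229 had ratios of 0.132, 0.170 and 0.181. On their arm entries mir-64 passed the rule at 0.457 (0.389 to 0.537). There mir-65 at 0.887 (0.796 to 0.988) and mir-229 at 0.780 (0.534 to 1.14) fell short of it. For mir-66 the hairpin entry had 1.53 (1.25 to 1.87) and the arm entries 2.42 (1.79 to 3.32), past the rule.

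Higher ratios were uncommon among all genes in this pair, where 10.9% of 1993 were called higher and 82.9% lower and the median log2 ratio over all of them was -7.15, but 27 of 68 other microRNAs were higher, 30 lower and 11 neither, with a median ratio of 0.724. The ratio of mir-63 ran from 19.0 over all assigned reads through 36.8 over microRNA reads to 76.8 with DESeq2 size factors and 65.3 with TMM. The ratio of mir-66 passed the rule as higher under all 4 other scalings, from 2.22 to 8.93. Under DESeq2 and TMM that of mir-64 was 0.935 and 0.795, that of mir-229 was 1.16 and 0.990 and that of mir-65 turned to 1.59 and 1.35. The summed family, at 0.372 over non-rRNA reads, turned to 1.88 and 1.60 under both. Both scalings draw on genes with reads in each library, with no minimum of reads, while 82.9% of all genes were called lower. Of genes called apart, 11.6% were higher over non-rRNA reads, against 12.7 to 21.2% under the others. Within the family the odds of mir-63 were 50.3 times those in total RNA (35.0 to 75.0).

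In eri-1 with UV, mir-63 was again the only member called higher in NRDE-3-bound RNA over non-rRNA reads with entries summed. Its reads numbered 487 in NRDE-3-bound RNA and 104 in total RNA, a ratio of 13.5 (10.9 to 16.8), the 78th from the lowest of 79 microRNAs. Reads of mir-229 numbered 0 in NRDE-3-bound RNA and 3503 in total RNA, 406-fold lower with 3 reads in place of 0. This NRDE-3-bound library held few entries with many reads each, so that fold is not a bound. With 0.5 reads added, mir-229 ranked lowest of the 79. For mir-65, 79 reads in NRDE-3-bound RNA stood against 5398 in total RNA, a level 23.8-fold lower (19.0 to 30.1). Reads of mir-64 numbered 283 in NRDE-3-bound RNA and 4334 in total RNA, a level 5.33-fold lower (4.72 to 6.03). For mir-66, 110 reads in NRDE-3-bound RNA stood against 932 in total RNA, a level 2.95-fold lower (2.42 to 3.63). Counted apart, its hairpin entry had a ratio of 0.207 (0.148 to 0.282) and its arm entries 0.575 (0.435 to 0.749), short of the rule. Those of mir-64 had 0.201 and 0.158, and those of mir-65 0.0320 and 0.0621.

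Here 7.08% of 4195 genes were called higher and 86.6% lower, and the median log2 ratio over all of them was -5.79, and of 74 other microRNAs 10 were higher, 55 lower and 9 neither, with a median ratio of 0.0405. The clustered members mir-64 and mir-66 thus lay above that median though lower in NRDE-3-bound RNA, and mir-65 at 0.0421 lay close to it. Over microRNA reads the ratios of mir-64, mir-66 and mir-65 were 1.68, 3.03 and 0.376. The ratio of mir-63 was 4.54 over assigned reads and 120 over microRNA reads, called higher under both. Within the family the odds of mir-63 were 140 times those in total RNA (111 to 179). Among genes called apart, 7.56% were higher over non-rRNA reads, against 4.32 to 30.0% under the others. Both NRDE-3-bound libraries are those with few entries of many reads, whose part in the level of mir-63 was not tested.

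**Figure D5:**
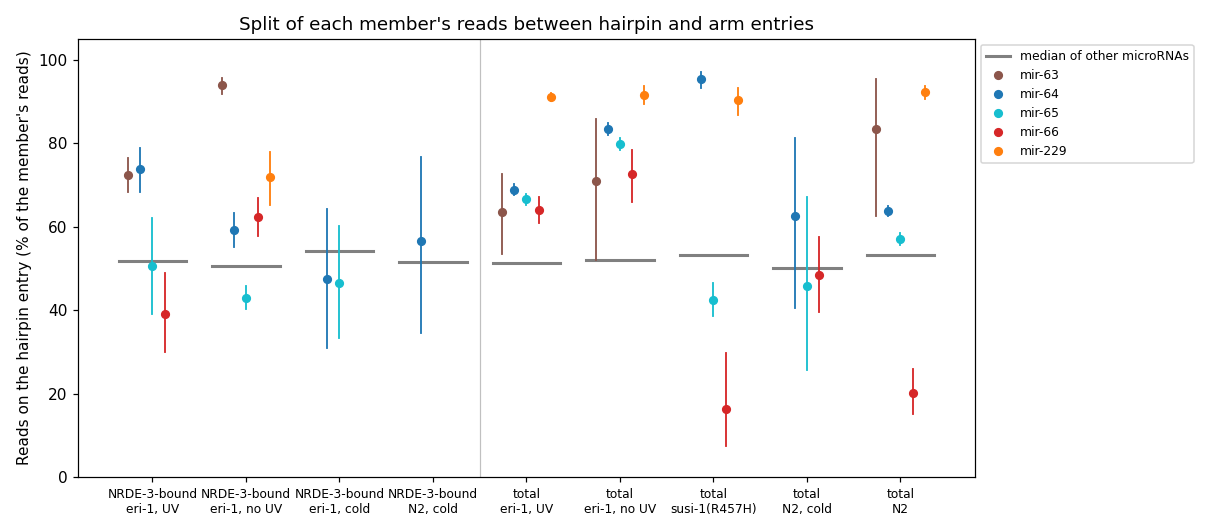
Percent of each member's reads on its hairpin entry, the rest lying on its arm entries, in libraries where the member had 20 or more reads; bars are exact 95% binomial intervals and grey lines the median of other microRNAs with 200 or more reads. In susi-1(R457H) mir-64 stood at 95.4%, mir-65 at 42.5% and mir-66 at 16.3%, and mir-229 stood at 90.3 to 92.2% in the 4 total libraries where it is drawn.

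Each member has 3 entries, for the hairpin, the 5′ arm and the 3′ arm, and the sources used here do not give how reads were divided among them. The RNA was cut from gels at 20 to 30 nt, and hairpins measured 99 to 115 bases. Reads on a hairpin entry are therefore not whole hairpins, and may include mature strands. For other microRNAs with 200 or more reads the hairpin entry held a median of 50.1 to 54.2% of the reads in a library. Arm reads of mir-64, mir-65 and mir-66 lay on the 5′ arm in every library, and those of mir-63 on the 3′ arm. Reads of mir-229 lay on both arms in total RNA, on the 3′ arm in 252 of 310 arm reads in eri-1 with UV, 36 of 59 in eri-1 without UV, 30 of 34 in susi-1(R457H), 3 of 4 in N2 after cold shock and 74 of 93 in N2. In NRDE-3-bound RNA of eri-1 without UV all 58 of its arm reads lay on the 5′ arm.

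The split differed between libraries for the same member. The hairpin entry of mir-64 held 95.4% of its reads in susi-1(R457H) (93.3 to 97.1) and 63.8% in N2 (62.5 to 65.1). Its arm reads numbered 24 in susi-1(R457H) and 1948 in N2, a ratio of 0.0208 (0.0133 to 0.0311), against 502 hairpin reads in susi-1(R457H) and 3430 in N2 and a ratio of 0.247 (0.225 to 0.272). For mir-65 the order was the other way, with a ratio of 0.324 (0.288 to 0.364) for arm reads and 0.180 (0.158 to 0.205) for hairpin reads. Since reads may be split between these loci, the contrast between mir-64 and mir-65 is uncertain.

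The hairpin entry of mir-66 held 48.4% of its reads in N2 after cold shock (39.5 to 57.4) and 20.2% in N2 (15.2 to 26.0). Its hairpin reads had a ratio of 3.92 (2.63 to 5.86) and its arm reads, 66 after cold shock and 182 in N2, a ratio of 1.05 (0.782 to 1.40). Both entries of mir-64 had a ratio near 0.013 in that pair, and those of mir-65 had 0.0133 for hairpin and 0.0208 for arm reads. For mir-229 hairpin reads had a ratio of 0.0106 (0.00288 to 0.0272). Its arm reads, 4 after cold shock and 93 in N2, had a ratio of 0.125 (0.0333 to 0.331). In eri-1 without UV the hairpin share was 83.5% for mir-64, 79.8% for mir-65 and 72.5% for mir-66, each above N2. Arm reads of mir-64, mir-65 and mir-66 had ratios over N2 of 0.163, 0.267 and 0.241, and hairpin reads ratios of 0.468, 0.793 and 2.52 (1.80 to 3.58 for mir-66). The entries of mir-66 thus moved in opposite directions, and its ratio of 0.700 sums both. With UV over without in total RNA of eri-1, the hairpin and arm entries of mir-64 had ratios of 0.638 and 1.46, those of mir-65 0.646 and 1.28, those of mir-66 1.77 and 2.62 and those of mir-229 2.23 and 2.38. For mir-229 the hairpin entry held 91.2% of reads in eri-1 with UV, 91.7% in eri-1 without UV, 90.3% in susi-1(R457H) and 92.2% in N2.

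Reads of mir-63 in NRDE-3-bound RNA lay mainly on the hairpin entry, with 353 of 487 in eri-1 with UV and 559 of 595 without. Over total RNA, hairpin reads had a ratio of 15.4 with UV (11.8 to 20.3) and 20.2 without (13.2 to 32.5). Arm reads numbered 134 in NRDE-3-bound RNA and 38 in total RNA with UV, a ratio of 10.1 (7.02 to 14.9), and 36 in NRDE-3-bound RNA and 9 in total RNA without UV, a ratio of 3.18 (1.501 to 7.50).

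The 3 microRNAs whose levels over the 5 total libraries were most like those of the summed family, among 85 others, were mir-233, mir-72 and mir-90. Likeness was the root mean square difference of centred log2 CPM, which was 0.32 for mir-233, 0.42 for mir-72 and 0.43 for mir-90. The levels of mir-233 were low, at 47.1 CPM in eri-1 with UV, 25.4 CPM in eri-1 without UV, 14.2 CPM in susi-1(R457H), 2.71 CPM in N2 after cold shock and 65.3 CPM in N2, so its rank rests on few reads. By the same measure single members were less like their sum, at 0.65 for mir-64, 0.67 for mir-65, 0.89 for mir-229, 1.11 for mir-63 and 1.81 for mir-66. The level of mir-90 was 1903 CPM in eri-1 with UV, 2342 CPM in eri-1 without UV, 831 CPM in susi-1(R457H), 111 CPM in N2 after cold shock and 2738 CPM in N2.

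Genes listed for the microRNA pathway, with rde-4 and ergo-1 among them, were followed by their antisense reads, and 18 of 19 listed genes were found. These reads do not measure their messages, and whether they were siRNAs was not tested. Of these, 4 were higher and 13 neither with UV in total RNA of eri-1, where 15.6% of all genes were called higher. In eri-1 over N2, 4 were lower and 8 neither, with 25.8% of all genes lower, and in susi-1(R457H) 1 was higher, 3 lower and 1 neither, with 49.1% of all genes lower. After cold shock 1 was higher and 3 lower in total RNA, with 65.6% of all genes lower, and in NRDE-3-bound RNA 12 of 12 tested were higher in eri-1, near the 88.9% of all genes. With UV, 2 of 2 tested were lower in NRDE-3-bound RNA, with 34.4% of all genes lower. Over total RNA, NRDE-3-bound RNA had 16 of 16 tested lower in eri-1 with UV, near the 86.6% of all genes. Without UV 3 were lower, 1 higher and 1 neither, with 82.9% of all genes lower, and in N2 after cold shock 3 were higher, 1 lower and 1 neither, with 30.4% of all genes higher and 60.0% lower. The listed genes with most reads were pab-1, for the poly(A)-binding protein, xrn-2, for an exonuclease that degrades mature microRNAs in worms, and xrn-1, for a cytoplasmic exonuclease. Antisense reads of xrn-2 numbered 58 in susi-1(R457H) and 254 in N2, a ratio of 0.386 (0.285 to 0.515). Those of xrn-1 numbered 8 in susi-1(R457H) and 57 in N2, a ratio of 0.237 (0.0977 to 0.499), and those of pab-1 numbered 433 in susi-1(R457H) and 330 in N2, a ratio of 2.22 (1.92 to 2.57).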

How the data were processed

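The deposited small RNA tables hold counts of reads per transcript entry in whole numbers, split into sense and antisense reads per the file headers. Gel-purified RNA of 20 to 30 nt was treated with phosphatase and polynucleotide kinase, then sequenced on an Illumina instrument, per the labels' protocols. Bowtie2 is named in the submitters' processing notes, while its version, the build and the handling of reads with several matches are not given in the sources used here. From the deposited counts, entries were summed to genes, and 0 to 3 broken lines a library, at most 0.00052% of reads, were left out. Ratios have exact conditional binomial (Clopper-Pearson) 95% intervals, levels exact Poisson ones and members against the others conditional odds ratios. A member at 0 was set to 3 reads, and 0.5 reads were added in medians of log2 ratios and in the measure of likeness. Python 3.11.15, scipy 1.17.1, R 4.3.3, edgeR 4.0.16 and DESeq2 1.42.0 were used, both R packages for scaling only. Their scaling was set pair by pair on genes with reads in each library, with no minimum of reads. It may be unstable where few genes had reads in each. Alternatives were 4 other scalings, sense with antisense reads, mir-64 with mir-65 summed, and other minima and folds. The genes named were the 5 members, the 3 most alike microRNAs with 50 or more reads over the total libraries, and the 3 pathway genes with most reads; the members and lists were chosen with earlier results of these data known.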

Additional observations from a re-analysis of the deposited data

Results flagged for a closer look

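In eri-1, mir-66 and mir-229 moved in opposite directions with UV in the 2 kinds of library. The ratio of mir-66 was 2.00 in total RNA, while in NRDE-3-bound RNA its level was 2.61-fold lower. Its hairpin and arm entries had ratios of 1.77 and 2.62 in total RNA. In NRDE-3-bound RNA they had 0.240 and 0.621 (0.462 to 0.827), so the arm entries fell short of the rule there. The ratio of mir-229 was 2.24 in total RNA, while in NRDE-3-bound RNA it had 0 reads with UV and 206 without. The median ratio of the other microRNAs lay on the same sides, at 1.61 in total RNA and 0.504 in NRDE-3-bound RNA. With 1 library in each group the difference between the 2 kinds of library was not tested.
Over microRNA reads the ratio of mir-66 was 1.29 in total RNA and 0.911 in NRDE-3-bound RNA. The NRDE-3-bound libraries held few entries with many reads each, at a median of 38 reads with UV and 57 without, against 16 and 10.5 in total RNA, and the part of this was not tested.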

How the results depend on the processing

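No paired analysis was possible because each group had 1 library. The counts cannot show spread between embryo preparations, and NRDE-3-bound RNA after cold shock held only 33 family reads in N2. The median log2 ratio of all genes moved by -3.68 to 3.44 between scalings.

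Where a cause is not named below, it was not tested. For the summed family, the ratio in susi-1(R457H) was 0.613 over microRNA reads and fell short of the rule, and with UV in total RNA it was 2.23 over assigned reads (2.22 for the cluster), the other direction. In eri-1 over N2 it was 0.603 with DESeq2 and 0.630 with TMM, short of the rule. With UV in NRDE-3-bound RNA it passed the rule at 0.312 over assigned reads, 0.433 with DESeq2 and 0.419 with TMM, and over microRNA reads it was 1.199 (1.11 to 1.29), the other direction with no call. After cold shock in NRDE-3-bound RNA of eri-1 over N2 it was 1.505 and 1.52 with DESeq2 and TMM, short of the rule. In NRDE-3-bound over total RNA of eri-1 without UV it was 0.900 over microRNA reads, short of the rule, and reversed to 1.88 and 1.60 with DESeq2 and TMM (1.52 and 1.30 for the cluster). With UV it reversed to 1.73 over microRNA reads.

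Some single members turned to the other side of 1 with a call under the main or the other scaling. In susi-1(R457H) this was mir-229 (1.29 over microRNA reads), and after cold shock mir-66 (0.415 over assigned reads). In NRDE-3-bound eri-1 over N2 it was mir-64 (0.695 with DESeq2, 0.704 with TMM). In NRDE-3-bound over total RNA without UV these were mir-65 (1.59 with DESeq2, 1.35 with TMM) and mir-229 (1.16 with DESeq2). With UV they were mir-64 (1.68) and mir-66 (3.03) over microRNA reads. Only mir-66, at 0.415 and 3.03, was called in the new direction. The intervals of mir-229 at 1.16 (0.992 to 1.36) and of mir-64 at 0.695 and 0.704 held 1. With no call on either side but intervals clear of 1, mir-64 and mir-65 with UV in total RNA turned to 1.77 each over assigned reads, and with UV in NRDE-3-bound RNA mir-64 turned to 1.86 over microRNA reads and mir-63 to 0.831 over assigned reads.

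With mir-64 and mir-65 summed, the odds ratio against the other members was 0.414 in susi-1(R457H), where mir-65 alone stood at 1.04, and 0.357 with UV in total RNA, both now past the rule. It was 0.417 with UV in NRDE-3-bound RNA, reversed from mir-64 alone, 0.438 in NRDE-3-bound eri-1 over N2 after cold shock, reversed from mir-65 alone at 3.56 and short of the rule, and 0.283 in NRDE-3-bound over total RNA of eri-1 with UV. Sense and antisense reads summed left every ratio on its side of the rule. Of 36 pairs of libraries, 30 kept their order for the summed family over microRNA reads.

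Background counts moved by over 1.5 times in 9 of 18 cases with a minimum of 20 reads, 14 of 18 with a minimum of 1 read and 3 of 18 with a 1.5-fold threshold. Lower calls at 50 and 20 reads were 1112 and 2209 in susi-1(R457H), 1378 and 3061 after cold shock, 835 and 1523 in eri-1 over N2, and 674 and 1031, 1653 and 3595, and 3632 and 6539 in NRDE-3-bound over total RNA of N2, eri-1 without UV and eri-1 with UV. Higher calls were 797 and 1406 with UV in total RNA, 335 and 553 in eri-1 over N2, and 1412 and 3255 in NRDE-3-bound eri-1 over N2. At 1.5-fold, higher calls were 516 in susi-1(R457H) (324 at 2-fold) and 1246 with UV in total RNA, and lower calls 1289 in eri-1 over N2. With a minimum of 1 read, lower calls were 2780 in susi-1(R457H), 3750 after cold shock, 865 with UV in total RNA (520 at 50 reads), 1998 in eri-1 over N2, 494 with UV in NRDE-3-bound RNA (326 at 50), and 1994, 7697 and 7773 in NRDE-3-bound over total RNA. Higher calls were then 573, 1017 (477 at 50), 1703, 706 and 674 (387 at 50) in the first 5 of these pairs, and 8612 in NRDE-3-bound eri-1 over N2.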
